A study of Mus musculus with 7 samples.

Results

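The 31 genes described here encode enzymes and regulators of cholesterol and fatty acid synthesis, and they were followed in 7 libraries of mouse granulocytes. They were chosen by name: mevalonate and sterol pathway enzymes, regulators of the SREBP transcription factors, and enzymes of fatty acid synthesis, elongation and desaturation. All 31 were found among the 51789 genes of the table, and 30 passed the filter on low counts. The libraries were labelled wild type (WT1 to WT4, n = 4) or knockout (KO1 to KO3, n = 3) for Alox15, a lipoxygenase that oxidises polyunsaturated fatty acids, and all were labelled untreated. Neither the strain, age, tissue of origin or sort of the cells nor the part of Alox15 that was deleted is given in the labels. Whether each library is a different animal is not stated. The p-values therefore rest on the spread among these libraries alone, which may be technical.

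Cholesterol is built from acetyl-CoA by way of mevalonate, isoprenoid units, squalene and lanosterol. SREBP2, the product of Srebf2, and SREBP1, the product of Srebf1, are transcription factors held in the endoplasmic reticulum membrane by INSIG proteins when sterols are plentiful, and carried by SCAP to the Golgi for cleavage when sterols fall. SREBP2 acts mainly on sterol genes and SREBP1c mainly on fatty acid genes, and both work together with NF-Y, which binds CCAAT boxes. Dividing cells use both pathways to build membranes.

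Stretches from the promoters of 6 of these genes are shown because the genes come from different steps. They are an early enzyme, a decarboxylase, a sterol reductase, the sterol sensor partner and both SREBP genes. The 6 were picked by hand, and each stretch was placed to hold as many marked matches as possible. That each holds a CCAAT box therefore follows from the choice. The sequences are RefSeq's, on GRCm38.p6, and each runs 5′ to 3′ along the gene's own strand. Only bases that lie before the whole gene model were taken. For Srebf1, which has 3 promoters listed, the stretch shown is therefore from the outermost start. Which of its promoters serves SREBP1c was not examined. Capitals mark CCAAT on either strand (read as ATTGG on the other) and the letters TCACNCCA, a sterol response element without its last letter.
Hmgcs1, chr13:119690114-119690233, plus strand: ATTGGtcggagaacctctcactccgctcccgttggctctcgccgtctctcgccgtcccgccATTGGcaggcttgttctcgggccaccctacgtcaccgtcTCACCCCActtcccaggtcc
Mvd, chr8:122443423-122443542, minus strand: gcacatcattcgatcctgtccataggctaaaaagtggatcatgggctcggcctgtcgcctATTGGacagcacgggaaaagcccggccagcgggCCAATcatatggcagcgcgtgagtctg
Hsd17b7, chr1:169969265-169969384, minus strand: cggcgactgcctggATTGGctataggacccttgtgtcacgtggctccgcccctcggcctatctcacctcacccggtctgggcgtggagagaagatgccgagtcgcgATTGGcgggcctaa
Insig1, chr5:28071162-28071281, plus strand: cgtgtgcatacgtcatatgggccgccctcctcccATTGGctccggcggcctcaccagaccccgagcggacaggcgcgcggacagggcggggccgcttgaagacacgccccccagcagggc
Srebf1, chr11:60222688-60222807, minus strand: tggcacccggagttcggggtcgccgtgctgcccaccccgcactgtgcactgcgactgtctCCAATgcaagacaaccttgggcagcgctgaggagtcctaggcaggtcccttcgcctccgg
Srebf2, chr15:82147060-82147179, plus strand: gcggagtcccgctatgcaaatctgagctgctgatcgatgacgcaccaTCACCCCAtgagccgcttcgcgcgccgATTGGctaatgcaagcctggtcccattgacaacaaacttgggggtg

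The RefSeq promoter table, which covers 250 bases before to 50 after a start, held 24 of the 31 genes. CCAAT on either strand was found in 20 of these 24, against 41.1% of the 27025 genes in the table. The palindrome CACGTG, an E-box that SREBP1 and other factors can bind, was found in 6 of the 24, in Dhcr7, Elovl5, Hsd17b7, Insig1, Sc5d and Scap, against 8.09% of all genes. The longer sterol response element TCACNCCAC was found only in Hmgcs1 among the 24, against 1.44% of all genes. Without its last letter, a form searched after the Srebf2 promoter had been seen, it was also found in Msmo1 and Srebf2 (4.97% of all genes). The longer and shorter forms overlap by construction. These matches are letters in a window and show no binding.

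Library totals ran from 3228292 to 5657192 counts. Alox15 had 0 counts in WT1 to WT4, KO2 and KO3 and 1 count in KO1, so it does not check the genotype labels. All 10 neutrophil markers, led by S100a9 and S100a8, were detected in the granulocyte libraries, and their summed level spanned 2426 to 25192 CPM (read counts scaled to a common library size with TMM factors) over the wild-type libraries and 1916 to 21841 CPM over the knockouts. WT2 and KO3 were the lowest libraries. The eosinophil granule gene Epx and the epithelial marker Epcam were at 0 in all 7 libraries. T cell markers were present in all 7, with 9 of 10 tested, and the summed T cell level was lowest in WT1 (724 CPM) and highest in KO3 (1889 CPM). Xist, transcribed from the inactive X, had 382 CPM in KO2 and 102 CPM in KO3 and at most 6.11 CPM in the other 5. The Y-linked Ddx3y had 0.306 CPM in KO2 and 0.195 CPM in KO3 and 19.3 to 119 CPM in the other 5, so KO2 and KO3 differ from all other libraries in their sex-linked transcripts. KO2 and KO3 also share a stem in their sample descriptions that the other 5 libraries do not have. In these bulk libraries, fewer cells of a type and less RNA per cell cannot be told apart.

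Setting knockout against wild type asks whether these genes differ in granulocytes without Alox15. None of the 30 tested genes passed the test in either direction, on a background of 0% of 12506 genes called higher and 0% called lower (edgeR quasi-likelihood test, Benjamini-Hochberg adjusted p = 0.99995 for every member). At an unadjusted p under 0.05 there were 0 members, against 1.23% of all genes tested (0.448% higher and 0.784% lower in knockout). The knockout and wild-type ranges overlapped for all 30 genes. Over all genes, 1.57% had every knockout library above every wild-type library and 1.57% the reverse. Limma-voom with quality weights, which weights each library by its fit, also called 0 members. It put 2 of 30, Srebf1 and Stard4, at an unadjusted p under 0.05, near its share over all genes of 4.19%. DESeq2 called 0 members and put 0 at that level, beside 1.71% of 20692 genes.

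Fitted log2 fold changes (knockout minus wild type) were positive for 23 of the 30 genes and negative for 7, beside 51.4% positive over all genes tested. Their median was 0.16, beside 0.01 over all genes. This balance rested on KO3: without it 7 of 30 were positive and the median was -0.29. It also turned under limma-voom with quality weights, where 8 of 30 were positive and the median was -0.19, and KO3 had the smallest sample weight (0.414). The standard errors ran from 0.288 to 1.02, and the 95% interval spanned 0 for all 30 and reached beyond a 2-fold change for 25. A 2-fold difference in at least 1 direction was therefore within the interval of most of these genes, and the data do not show that they were alike in the 2 genotypes.

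**Figure D1:**
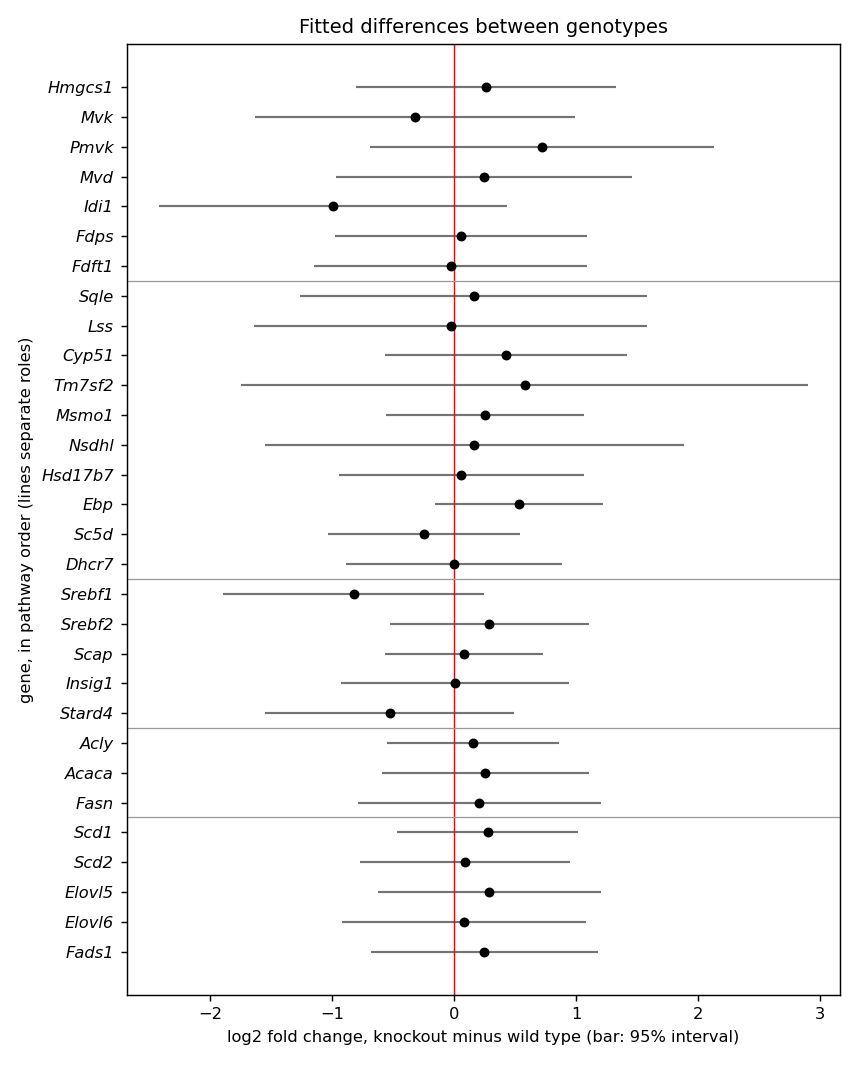
Fitted log2 fold change of knockout against wild type (x axis, log2 scale) for the 30 tested genes (y axis, in pathway order), with bars for the 95% interval from edgeR. The 23 positive and 7 negative values lie between -0.996 for Idi1 and 0.72 for Pmvk, and every bar crosses 0.

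In the mevalonate branch, Hmgcs1, Fdps and Mvd spread more widely among the knockout libraries than among the wild-type ones. Hmgcs1, which makes HMG-CoA, stood at 74.4, 126, 89.0 and 85.0 CPM in WT1 to WT4 and at 86.5, 41.7 and 207 CPM in KO1 to KO3. KO3 was above and KO2 below every wild-type library, so the knockout group spanned 4.98-fold on both sides of wild type. Fdps, which makes farnesyl diphosphate, had the same order at its ends, with 37.1, 66.2, 51.05 and 35.2 CPM in the wild-type libraries and 44.1, 19.9 and 83.5 CPM in knockout. Mvd, the decarboxylase that yields isopentenyl diphosphate, stood at 28.4, 22.9, 14.3 and 32.8 CPM and at 22.0, 10.1 and 54.7 CPM. Again KO3 was the highest and KO2 the lowest of the 7.

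Fdft1, squalene synthase and the first committed step to sterols, was also highest in KO3 (31.4 CPM) but lowest in KO1 (7.97 CPM), with wild type between 13.7 and 22.2 CPM. Mvk, mevalonate kinase, ran from 6.57 to 18.5 CPM in the wild-type libraries and from 3.89 to 16.7 CPM in knockout.

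Pmvk and Idi1, like Fdft1 and Mvk, did not have KO3 as the highest and KO2 as the lowest library. Pmvk, phosphomevalonate kinase, stood at 23.0, 10.3, 3.97 and 8.47 CPM in the wild-type libraries and at 24.9, 7.66 and 23.6 CPM in knockout. Its highest values were thus in WT1, KO1 and KO3, and its log2 fold change was 0.72 ± 0.63 (SE; edgeR unadjusted p = 0.279). It lay between 0.43 (without WT3) and 1.30 (without WT1) when 1 library was left out. Idi1, the isomerase that makes dimethylallyl diphosphate, stood at 4.48, 25.4, 30.4 and 12.4 CPM in the wild-type libraries and at 11.7, 5.51 and 10.1 CPM in knockout. All 3 knockouts lay inside the wild-type range, below WT2, WT3 and WT4 and above WT1. Idi1 had the most negative fitted value of the 30, -0.996 ± 0.64 (SE; edgeR unadjusted p = 0.150). With 1 library left out it lay between -1.31 (without WT1) and -0.63 (without WT3).

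Of the 10 enzymes from squalene to cholesterol, 6 were highest in KO3 and 4 lowest in KO2. Sqle, squalene epoxidase and a rate-limiting step of the sterol branch, stood at 9.56, 29.8, 12.7 and 11.9 CPM in the wild-type libraries and at 9.72, 7.35 and 36.6 CPM in knockout. WT2 and KO3 stood apart from the other 5 libraries, which lay between 7.35 and 12.7 CPM. Cyp51, lanosterol demethylase, showed the same 2 libraries on top, with 39.1, 122, 86.0 and 78.1 CPM in the wild-type libraries and 80.5, 68.6 and 179 CPM in knockout. Its log2 fold change was 0.43 ± 0.44 (SE; edgeR unadjusted p = 0.359) and turned to -0.20 without KO3. Msmo1, the methylsterol oxidase that follows, was the steadiest of the 3 in wild type, with 49.3, 57.9, 55.6 and 45.5 CPM, but stood at 53.1, 34.0 and 98.5 CPM in knockout.

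Lss, lanosterol synthase, was a low gene with 1.79 to 12.2 CPM in the wild-type libraries and 3.50 to 12.1 CPM in knockout. Hsd17b7, a 3-ketosteroid reductase, ran from 13.4 to 24.7 CPM in the wild-type libraries and from 8.88 in KO2 to 27.3 in KO3. Nsdhl, the X-linked sterol dehydrogenase, had the largest ratio among genes seen in every library, 20.2-fold, from 1.23 CPM in KO2 (4 counts) to 24.7 CPM in KO1. Wild type lay between, at 5.98 to 14.6 CPM, so the extremes were both knockouts.

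Ebp, the X-linked sterol isomerase that emopamil binds, had the smallest unadjusted p of the 30. It stood at 24.2, 26.6, 33.2 and 18.8 CPM in the wild-type libraries and at 38.3, 32.5 and 40.7 CPM in knockout. KO1 and KO3 were above every wild-type library, and KO2 was just below WT3. Its log2 fold change was 0.53 ± 0.31 (SE; edgeR unadjusted p = 0.115, 95% interval -0.16 to 1.22), and it stayed between 0.40 and 0.68 when any 1 library was left out.

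Sc5d, the desaturase that acts near the end of the pathway, had 60.1, 60.6, 50.5 and 31.8 CPM in the wild-type libraries and 34.2, 61.3 and 32.9 CPM in knockout. Its low libraries, WT4, KO1 and KO3, came from both genotypes, and its log2 fold change was -0.25 ± 0.35 (SE; edgeR unadjusted p = 0.498), or -0.60 without KO2 and -0.11 without KO1. Dhcr7, the last reductase of one branch to cholesterol, ran only from 10.9 to 18.7 CPM over the 7 libraries, with a fitted value next to 0 (95% interval -0.89 to 0.89). Tm7sf2, a sterol reductase, had 119, 184, 175 and 0 counts in wild type and 97, 188 and 180 in knockout. WT4, with 0 counts, stood alone. A count of 0 there allows up to 0.768 CPM before TMM scaling.

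**Figure D2:**
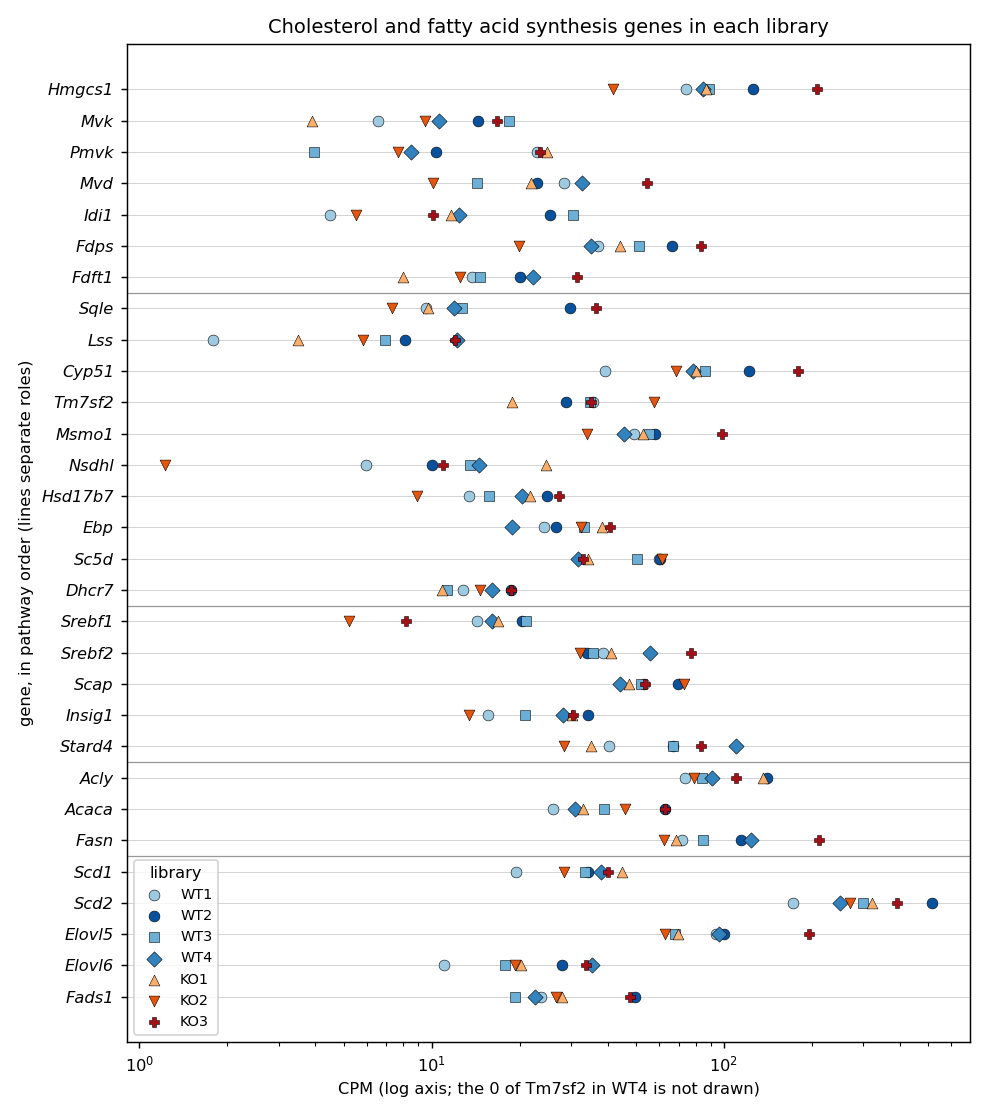
CPM on a log axis (x) for the 30 tested genes (y, in pathway order, lines between roles), with 1 symbol for each of the 4 wild-type (blue) and 3 knockout (orange to red) libraries. KO3 is the highest library for 14 genes and KO2 the lowest for 13, and the wild-type symbols lie among the knockout ones.

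The 2 SREBP genes differed in their order over the libraries. Srebf1 stood at 14.3, 20.4, 21.1 and 16.15 CPM in the wild-type libraries and at 16.9, 5.21 and 8.18 CPM in knockout. KO2 and KO3 were below all other libraries, while KO1 lay inside the wild-type range. The log2 fold change was -0.82 ± 0.48 (SE; edgeR unadjusted p = 0.116), -1.42 without KO1 (unadjusted p = 0.0178, adjusted p = 0.99999 in edgeR) and -0.52 without KO2. KO2 and KO3 are also the libraries with high Xist, low Ddx3y and the other description stem, so genotype cannot be told apart from these in them. With the stem as a covariate the value was -0.09, which rests on KO1 alone against wild type, since no wild-type library shares the stem of KO2 and KO3.

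Srebf2 stood at 38.5, 34.1, 35.8 and 55.9 CPM in the wild-type libraries and at 41.2, 32.2 and 76.9 CPM in knockout. KO3 was the highest library for Srebf2 and the second lowest for Srebf1. The Srebf2 log2 fold change was 0.29 ± 0.36 (SE; edgeR unadjusted p = 0.445), and -0.22 without KO3. Scap, the escort of the SREBPs, had the smallest span of the 30, from 43.9 to 69.8 CPM in the wild-type libraries and from 47.2 to 73.2 CPM in knockout, a ratio of 1.67 between the highest and the lowest library.

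Insig1, which retains the SREBPs and is itself one of their targets, stood at 15.5, 34.3, 20.9 and 28.1 CPM in the wild-type libraries and at 30.3, 13.5 and 30.6 CPM in knockout. Its low libraries were WT1 and KO2, the same 2 as for Hmgcs1. Stard4, a sterol carrier between membranes, stood at 40.3, 66.7, 66.7 and 109.9 CPM in the wild-type libraries and at 35.2, 28.5 and 83.4 CPM in knockout. KO1 and KO2 were below all wild-type libraries and KO3 was above 3 of them. The log2 fold change was -0.53 ± 0.46 (SE; edgeR unadjusted p = 0.272), -0.21 without WT4 and -1.22 without KO3 (unadjusted p = 0.0179, adjusted p = 0.997 in edgeR).

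The 3 genes that make palmitate were positive in the fit, at 0.15 to 0.25, each with an interval across 0. Acly, which makes cytosolic acetyl-CoA from citrate, stood at 73.5, 141, 83.8 and 91.3 CPM in the wild-type libraries and at 136, 78.7 and 109.8 CPM in knockout, a 1.91-fold span with WT2 and KO1 on top. Acaca, acetyl-CoA carboxylase, reached 62.6 CPM in WT2 and 63.1 CPM in KO3 and lay between 26.0 and 45.9 CPM in the other 5 libraries. Fasn, fatty acid synthase, stood at 71.7, 115, 85.0 and 124 CPM in the wild-type libraries and at 68.8, 62.2 and 211 CPM in knockout. KO1 and KO2 were below every wild-type library and KO3 above, which gave a knockout mean of 114 ± 84.0 CPM (SD, n = 3) beside 98.9 ± 24.6 CPM (SD, n = 4) in wild type.

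The stearoyl-CoA desaturases, which place the first double bond in saturated fatty acids, were both detected. Scd1 had 19.4, 34.3, 33.6 and 37.9 CPM in the wild-type libraries and 44.9, 28.5 and 40.1 CPM in knockout, with WT1 the low library. Its log2 fold change was 0.27 ± 0.33 (SE; edgeR unadjusted p = 0.429), falling to 0.099 without WT1 and reaching 0.44 without KO2. Scd2 stood at 172, 515, 299 and 249 CPM in the wild-type libraries and at 321, 270.5 and 392 CPM in knockout, again lowest in WT1 but highest in WT2. Scd1 and Scd2 lie in the same cluster on chromosome 19 and are close paralogs, and how reads matching both were counted is not stated. Of their relatives, Scd3 had 0 counts in every library and Scd4 at most 8.

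Elovl5, which lengthens polyunsaturated fatty acids, stood at 93.8, 100.4, 68.1 and 95.8 CPM in the wild-type libraries and at 69.4, 62.8 and 195 CPM in knockout. Only KO3 left the range of the other libraries by a wide margin. The log2 fold change was 0.29 ± 0.41 (SE; edgeR unadjusted p = 0.499), and -0.50 without KO3. Elovl6, which lengthens palmitate to stearate, ran from 11.1 to 35.5 CPM in the wild-type libraries and from 19.3 to 33.7 CPM in knockout.

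Fads1, the delta-5 desaturase of arachidonate synthesis, stood at 23.6, 49.8, 19.3 and 22.5 CPM in the wild-type libraries and at 28.0, 26.6 and 47.9 CPM in knockout. WT2 and KO3 were again the 2 high libraries. Its neighbour on chromosome 19, Fads2, the delta-6 desaturase that acts before it, had 0 counts in all 7 libraries. That is 0 of 31979006 counts, which allows up to 0.0938 CPM over the series before TMM scaling, for counting error only. The annotation used for the counting is not stated, so it could not be checked whether tags from the 3′ end of Fads2 were assigned to it, and the limit says nothing of expression if they were not. Both desaturases act on the way from linoleate to arachidonate, a substrate of lipoxygenases.

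The 20 tested genes outside the 10 with the smallest unadjusted p had log2 fold changes of -0.32 to 0.58, of which 17 were positive and 3 negative, with standard errors of 0.288 to 1.02 and unadjusted p of 0.508 to 0.998 in edgeR. The 3′ ends of Mvd, Fdft1, Lss, Cyp51 and Srebf1 lie inside a gene on the other strand in GENCODE M21. For Fdft1 the other gene is the cathepsin gene Ctsb, with 12216 counts in all, and for Cyp51 it is Akap9, with 11188. The strand setting of the counting is not given, so the values of these 5 genes are less certain. The 3′ end of Fdps lies inside Gm43738, a gene on the same strand with 0 counts. How reads matching both were counted is not stated, so the Fdps values are less certain too. Vps51 overlaps Tm7sf2 on the same strand, but not at its 3′ end.

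Many of the genes shared their highest or lowest library, and the knockouts stood at both ends. KO3 held the highest value for 14 of the 30 tested genes, and over all genes it did so for 16.3%. It held the lowest for 0 of 30, beside 19.6% of all genes. KO2 held the lowest value for 13, beside 11.6% of all genes, and WT1 for 8, beside 21.2%. WT2 and KO3 were the 2 highest libraries together for 12 of the 30, beside 6.25% of all genes. These 12 were Acaca, Cyp51, Dhcr7, Elovl5, Fads1, Fdps, Hmgcs1, Hsd17b7, Insig1, Msmo1, Scd2 and Sqle. No test was made of these counts, since the libraries were picked for their values.

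**Figure D3:**
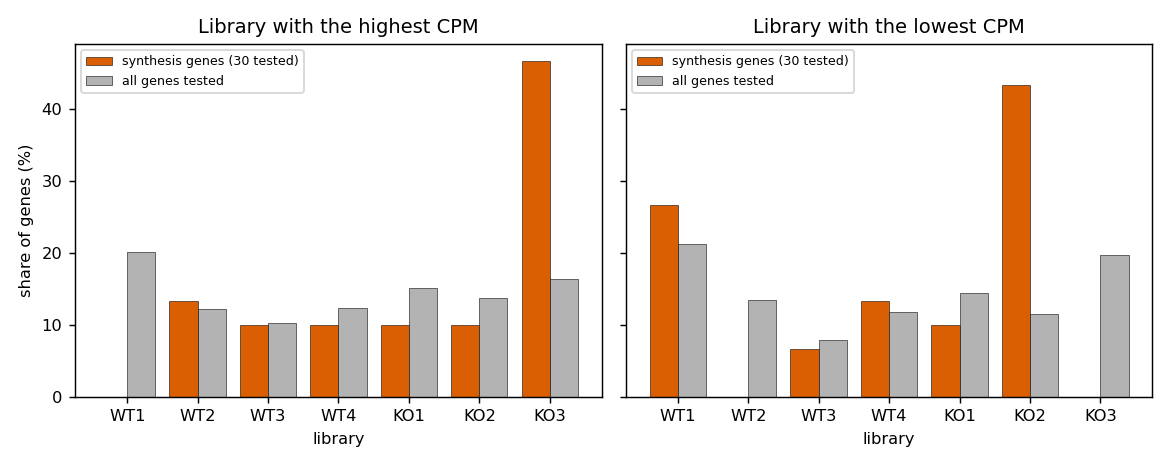
Share of genes (y axis, %) whose highest (left) or lowest (right) CPM fell in each library (x axis), for the 30 tested synthesis genes (orange) and all 12506 genes tested (grey). KO3 takes 14 of 30 highest values and no lowest value, and KO2 takes 13 of 30 lowest values.

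Each knockout library had its own place against the 4 wild-type libraries. KO3 was above all of them for 16 of 30 genes and below all for 1, Srebf1, beside 19.9% and 23.2% of all genes. KO2 was above for 3 and below for 14, beside 19.3% and 16.1%. KO1 was above for 4 and below for 5, beside 19.5% and 18.2%. The spread of a single member over the libraries was not unusual, with a median range of 1.70 on the log2 scale beside 1.73 over all genes.

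The 31 genes together took 0.219% of counts in WT2 (Wilson 95% interval 0.216 to 0.223%) and 0.217% in KO3 (0.213 to 0.221%). They took 0.101% in WT1 (0.0981 to 0.105%), 0.116% in KO2 (0.112 to 0.120%) and between 0.135% and 0.140% in WT3, WT4 and KO1. These intervals cover counting error only, and they treat reads as independent, which PCR copies of the same molecule are not. The summed level was 1092, 1943, 1384 and 1397 CPM in WT1 to WT4 and 1389, 1146 and 2264 CPM in KO1 to KO3. All 5 roles were higher in KO3 than in KO1 and KO2, from 427 against 201 and 107 CPM for the mevalonate enzymes to 253 against 171 and 153 CPM for the regulators.

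At its ends the synthesis sum ran against the neutrophil marker sum and with the T cell and proliferation sums, but not in every library. The summed neutrophil markers were at 2426 CPM in WT2 and 1916 CPM in KO3, the 2 libraries with the highest synthesis sums, and at 25192 CPM in WT1, the library with the lowest. They were at 13765 CPM in KO2, whose synthesis sum was close to that of WT1. KO1 had the next highest neutrophil sum after WT1, 21841 CPM, and WT3 had 10450 CPM, yet their synthesis sums, 1389 and 1384 CPM, were close. The summed T cell markers, led by Bcl11b, Lat and Cd3d, were 724, 1643, 1232 and 1425 CPM in the wild-type libraries and 888, 1247 and 1889 CPM in knockout. The 10 proliferation genes, led by Top2a, Mki67 and Mcm3, summed to 1452, 3099.6, 2605 and 2919 CPM and to 1782, 2598 and 3106 CPM. In KO2, which was low in synthesis, the T cell and proliferation sums were close to those of WT3. Monocyte and macrophage markers, 8 of 8 tested, ran from 133 to 475 CPM in the wild-type libraries and from 192 to 1054 CPM in knockout, where KO1 was the highest. Among the T cell markers, Cd8a was at or under 2.19 CPM in every library and at 0 in WT1 and WT2, and Cd4 was at 0 in WT1. B cell markers, 6 of 6 tested, summed to 4.78 to 105 CPM in wild type and 58.8 to 129.9 CPM in knockout. Eosinophil and mast cell markers, 4 of 6 tested, summed to at most 34.6 CPM in any library. Stromal and epithelial markers, 4 of 7 tested, summed to 67.7 to 193 CPM in wild type and 124 to 208 CPM in knockout. Of these 4, Sparc and Pecam1 had every knockout library above every wild-type library, as had 1.57% of all genes tested. Neither gene was called. Fitted values were positive for all tested monocyte and macrophage, B cell and stromal markers, beside 51.4% of all genes. They were positive for 7 of 10 neutrophil, 7 of 9 T cell, 2 of 4 eosinophil and mast cell and 3 of 10 proliferation genes. The part of these cell types in the synthesis values was not tested. With a marker score as covariate in the genotype fit, the members' median log2 fold change was 0.09 (neutrophil), 0.04 (T cell) or 0.21 (proliferation). Each of these fits called 0 members.

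**Figure D4:**
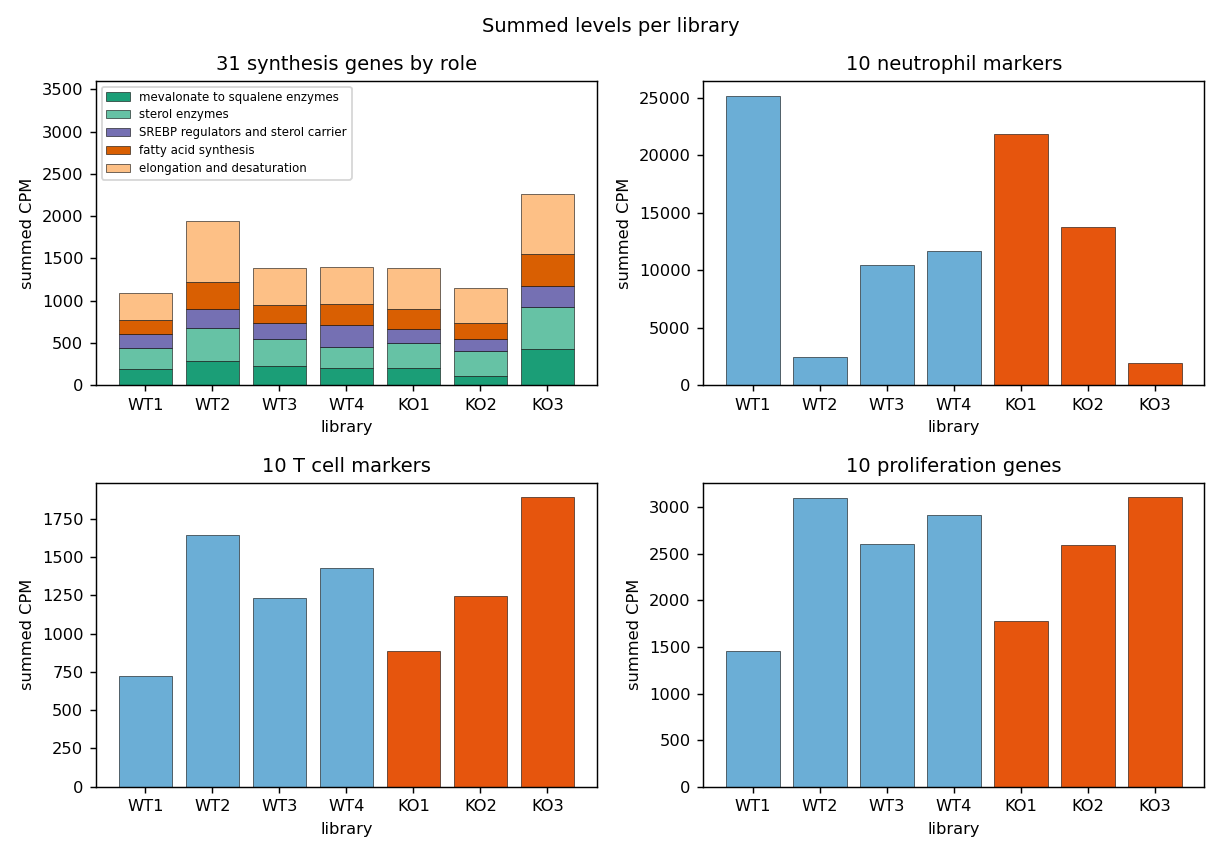
Summed CPM (y axis) in each of the 7 libraries (x axis) for the 31 synthesis genes stacked by role, and for 10 neutrophil markers, 10 T cell markers and 10 proliferation genes (wild type blue, knockout orange). The synthesis sum peaks in WT2 (1943) and KO3 (2264), where the neutrophil sum is lowest (2426 and 1916).

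Other genes of these pathways gave the same absence of calls, with 0 higher and 0 lower on the background of 0% given above. Of 15 other sterol pathway genes, all tested, 9 had positive and 6 negative fitted values (median 0.21). Lbr, the lamin B receptor that also acts as a sterol reductase, had a wild-type mean of 284 ± 67.8 CPM (SD, n = 4) and a knockout mean of 331 ± 66.3 CPM (SD, n = 3). It was highest in KO2 (373 CPM) and lay at 255 CPM in KO3. Of 19 other fatty acid genes 9 were tested, with 8 positive and 1 negative (median 0.19), led by Tecr, an elongation reductase, Elovl1, which makes very long chains, and Hacd3, an elongation dehydratase. Tecr stood at 132 CPM in KO3 and between 71.7 and 101.9 CPM in the others. The lipogenic factor Mlxipl and the elongases Elovl3 and Elovl4 were at 0 in all 7 libraries.

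Genes of sterol disposal were summed lowest in KO3, the library where the synthesis sum was highest. Of 8 genes of oxysterols and the liver X receptors, which sense excess sterol, 6 were tested, with 2 positive and 4 negative fitted values (median -0.07). Their summed level was 311 CPM in KO3, against 644 CPM in KO1 and 408 to 617 CPM in wild type. Soat1, which esterifies cholesterol for storage, ran from 228 to 371 CPM in the wild-type libraries and from 192 CPM in KO3 to 321 CPM in knockout. Nr1h2, liver X receptor beta, ran from 48.4 to 146 CPM in the wild-type libraries and from 62.9 to 127 CPM in knockout. Abcg1, a sterol exporter, was lowest in KO3 (38.9 CPM) and between 54.0 and 88.6 CPM in the other 6. WT2, the other library with a high synthesis sum, was not low in the sum of this list (558 CPM), of which Soat1 made up 371 CPM. Single genes differed. Soat1 and Abcg1 were highest of all libraries in WT2. Abca1 (23.5 CPM) and Mylip (6.58 CPM) were lower in WT2 than in the other wild-type libraries, and lowest of all in KO3 (11.9 and 3.89 CPM). Nr1h2 and Nr1h3 were at neither end of the wild-type range in WT2. The cause was not tested.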

How the data were processed

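PolyA RNA of 7 granulocyte libraries was made into libraries with a Lexogen QuantSeq kit, which reads transcripts near the 3′ end, per the labels' protocols. The authors deposited whole-number expected counts per Ensembl gene. The submitters' processing notes name RSEM 1.2.3, DESeq2 and mm10, with no role for each. The annotation release, strand setting and treatment of multi-mapped reads are not stated in any label or header. Positions came from GENCODE M21 (GRCm38, the same build). Symbols came from it too or, for genes it lacked, from a second list of gene names. A symbol was found for 51596 of 51789 genes. Groups came from the labels.

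The main test was edgeR 4.0.16 in R 4.3.3: filterByExpr by group, TMM scaling and robust quasi-likelihood F tests of 12506 genes. Calls needed a Benjamini-Hochberg adjusted p below 0.05. No set test or adjustment over the members alone was made. CPM uses TMM library sizes. The standard error comes from the F test. The test was checked on simulated data. The comparison was repeated with limma-voom with quality weights (limma 3.58.1), with DESeq2 1.42.0, and with other scaling and filters, libraries left out, a replicate block, and covariates.

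The members and lists were chosen with earlier results of these data known. Every member is given by level, fold changes are printed for the 10 tested members with the smallest unadjusted p, and up to 3 of the most abundant tested genes are named per other list. Other genes named were chosen after their values were seen. Total counts of 3228292 to 5657192 put 3 counts, the limit that a count of 0 allows, at 0.929 to 0.530 CPM before TMM scaling. Promoter motifs were searched on both strands in RefSeq promoters of GRCm38.p6.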

Additional observations from a re-analysis of the deposited data

Results flagged for a closer look

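Tm7sf2, a sterol reductase gene, was at 0 CPM in WT4, against 35.6, 28.8 and 34.8 CPM in WT1 to WT3 and 18.9 to 57.6 CPM in the knockouts. The gap between WT4 and the nearest wild-type library was nearly the whole range of the group on the log2 scale (0.953 of it). Chance flags about 1 in 20 groups of 4 by this rule, and 30 genes were looked at, of which Tm7sf2 alone was flagged. The knockout group, with 3 libraries, was too small for the rule.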

How the results depend on the processing

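No member was called under any alternative, and the smallest adjusted p of the 10 genes with printed fold changes was 0.893. The count of all genes called was 0 except with DESeq2, which called 1 gene (Impdh2-ps, log2 fold change -4.94, adjusted p = 0.00566), and with the T cell marker score as a covariate, which called 1 (Rps12-ps3, -3.60, edgeR adjusted p = 0.0135), both pseudogenes outside the members. That covariate and the proliferation score were chosen after seeing the data. The median of the members, 0.16, became -0.19 with limma-voom with quality weights (the test and the library weights change together). It became -0.16 without WT2 and KO3 together and -0.14 with the description stem as a covariate. With that covariate the genotype values rest on KO1 alone against wild type, since KO2 and KO3 carry the other stem. The median ran from -0.29 (without KO3) to 0.37 (without KO2) when 1 library was left out, where the numbers of all genes and of members called stayed at 0. The cause was not tested. Of 190 single-gene values under the alternatives 180 kept their sign and 10 reversed. Cyp51 turned to -0.0209 with limma-voom and -0.015 with the stem, and ran from -0.20 to 0.69 with 1 library left out. Srebf2 turned to -0.0003 with limma-voom and -0.29 without WT2 and KO3, and ran from -0.22 to 0.53. Elovl5 turned to -0.16 with limma-voom, -0.42 without WT2 and KO3 and -0.37 with the stem, and ran from -0.50 to 0.57. With the replicate number as a block on 6 libraries, the median was 0.07 and 0 members were called. The labels do not say whether the numbers pair the libraries. Deviations of same-numbered libraries correlated at 0.349, -0.225 and -0.184. WT1 correlated best with KO1 (0.349) and WT2 with KO3 (0.470). These correlations cannot decide whether libraries were paired, since any other difference between libraries also enters them. Depth limits the low genes most: Nsdhl in KO2 rests on 4 counts.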
